A study of Homo sapiens with 6 samples.

Results

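The genes described here encode the oxidative phosphorylation complexes. They were chosen by symbol: MT-ND, MT-CO, MT-CYB and MT-ATP genes, genes beginning with NDUF, UQCR or ATP5, the COX4 to COX8 genes, and SDHA, SDHB, SDHC and SDHD. The rule took 111 of the 22091 gene IDs in the count tables. Of these, 13 are encoded in mitochondrial DNA and 98 in the nucleus. The names also take in 8 complex I assembly factors (NDUFAF genes), 7 tissue-restricted or alternative isoforms and a few pseudogenes, paralogs and read-through loci, so 89 of the 111 are subunits proper. The RNA sequencing libraries came from liver cancer (hepatocellular carcinoma) cells: HCCLM3, MHCC97H and MHCC97L. Every line had 1 library after 4 h with the ligand TGF-β1 at 2.5 ng/mL and 1 from a 4 h control, so there are 6 libraries, 3 for each condition. MHCC97H and MHCC97L are sublines of high and low metastatic potential of the same parental line, and HCCLM3 came from MHCC97H through metastasis to the lung in mice, so the lines share an origin. The cells were kept in DMEM with fetal bovine serum.

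Complex I (NADH dehydrogenase), complex II (succinate dehydrogenase), complex III (cytochrome bc1) and complex IV (cytochrome c oxidase) pass electrons to oxygen, and complex V (ATP synthase) uses the proton gradient that complexes I, III and IV build. Complexes I, III, IV and V are mosaics: mitochondrial DNA supplies core subunits, made from long transcripts of the 2 strands that are cut into single messages inside the organelle, while nuclear genes supply all other subunits, each with a promoter of its own. Complex II is made from nuclear genes alone. The members by complex were 7 mitochondrial and 46 nuclear in complex I, 4 nuclear in complex II, 1 and 9 in complex III, 3 and 19 in complex IV, and 2 and 20 in complex V.

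Libraries held 21257080 to 23242862 expected counts after TGF-β1 and 18485041 to 22854982 in controls. Levels are CPM, expected counts scaled by library size with TMM factors. All 4 genes taken as a check of the response to the ligand (PMEPA1, CCN1, SMAD7 and JUNB) passed the test as higher after TGF-β1. The liver cell label was checked with 9 markers. The keratin gene KRT8 stood at 4744 to 6569 CPM after TGF-β1 and at 4293 to 5250.4 CPM in controls, and TTR was the 1 marker under 1 CPM in every library. Albumin (ALB) was at 1.26 CPM after TGF-β1 and 1.43 CPM in the control of HCCLM3. SERPINA1, APOB and APOA1 were also under 1 CPM in HCCLM3, at 0.968, 0.581 and 0.484 CPM after TGF-β1 and 0.849, 0.743 and 0.212 CPM in the control. Among 6 leukocyte markers MS4A1 was at 0 in all libraries, PTPRC and CD3E stayed under 1 CPM, and CD68 carried most of a summed level of 113 to 251 CPM after TGF-β1 and 128 to 220.5 CPM in controls. Summed levels of 9 stellate cell and fibroblast markers were 20 to 39.4 CPM after TGF-β1 and 12.1 to 35.2 CPM in controls, and of 5 endothelial markers 10.2 to 35.7 CPM after TGF-β1 and 13.5 to 41.4 CPM in controls.

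Per length of exon, the mitochondrially encoded genes stood far above the nuclear ones. Levels per kilobase of exon (CPM divided by exon length) had medians over the 13 mitochondrial genes of 3248, 2276 and 4409 in the TGF-β1 libraries of MHCC97L, MHCC97H and HCCLM3, against 3849, 3547 and 2800.5 in the controls of the same lines. The medians over the 98 nuclear genes were 27.7, 26.4 and 24.2 after TGF-β1 and 25.6, 23.9 and 23.2 in controls. MT-CO2, which encodes the copper-bearing subunit of complex IV that receives electrons from cytochrome c, was the highest of the 13 per kilobase in all 6 libraries, between 7329 and 13286 after TGF-β1 and between 9515 and 12474 in controls. MT-ND6, a membrane subunit of complex I and the 1 of the 13 genes written on the other DNA strand, was the lowest in all 6, at 643 to 1443 after TGF-β1 and 820.1 to 1215 in controls. COX8A, a small subunit of complex IV, led the nuclear genes with 442 to 487 after TGF-β1 and 414 to 478 in controls. In each library the lowest mitochondrial gene thus stood above the highest nuclear gene on this scale. The length is that of all annotated exons together. For the complex IV gene COX6A1 it is 1.344 kb, against 0.767 kb for its longest transcript. The leading nuclear gene and its place below the mitochondrial genes can therefore differ with the length used.

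Neighbouring mitochondrial genes overlap, which bears on how their reads can be told apart. MT-ATP8 (GRCh38 chrM:8366-8572) and MT-ATP6 (chrM:8527-9207) are 2 reading frames of ATP synthase on one message and share 46 bases, while MT-ND4L (chrM:10470-10766) and MT-ND4 (chrM:10760-12137), both complex I subunits, share 7. The junctions are shown on the + strand, with 20 bases on each side and the shared bases in capitals, from the GENCODE 29 transcripts. They lie at chrM:8507-8592 and chrM:10740-10786.
MT-ATP8 and MT-ATP6 junction: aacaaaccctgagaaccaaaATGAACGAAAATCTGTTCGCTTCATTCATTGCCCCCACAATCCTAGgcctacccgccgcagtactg
MT-ND4L and MT-ND4 junction: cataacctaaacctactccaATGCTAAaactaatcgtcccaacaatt
MT-ATP8, MT-ATP6, MT-CO1, MT-CO2, MT-CO3 and MT-ND2 had fractional expected counts in at least 1 library, as can arise when a read is divided among genes, and the other 7 mitochondrial genes had whole counts throughout. Copies of mitochondrial DNA in the nuclear genome were not analysed here.

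The first comparison sets the mitochondrial against the nuclear genes within each line. After TGF-β1 the 13 mitochondrial genes took a smaller share of the library in both MHCC97 lines and a larger share in HCCLM3, while the share of the 98 nuclear genes moved little. The mitochondrial share was 5.03% after TGF-β1 and 6.15% in the control of MHCC97L, 3.67% and 6.17% in MHCC97H, and 6.55% and 4.76% in HCCLM3. The nuclear share was 0.990% after TGF-β1 and 0.917% in the control of MHCC97L, 0.933% and 0.9% in MHCC97H, and 0.837% and 0.830% in HCCLM3. The mitochondrial share of HCCLM3 was thus the highest of the 3 lines after TGF-β1 and the lowest among the controls. In these bulk samples fewer cells of a kind and less RNA per cell cannot be told apart.

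**Figure D1:**
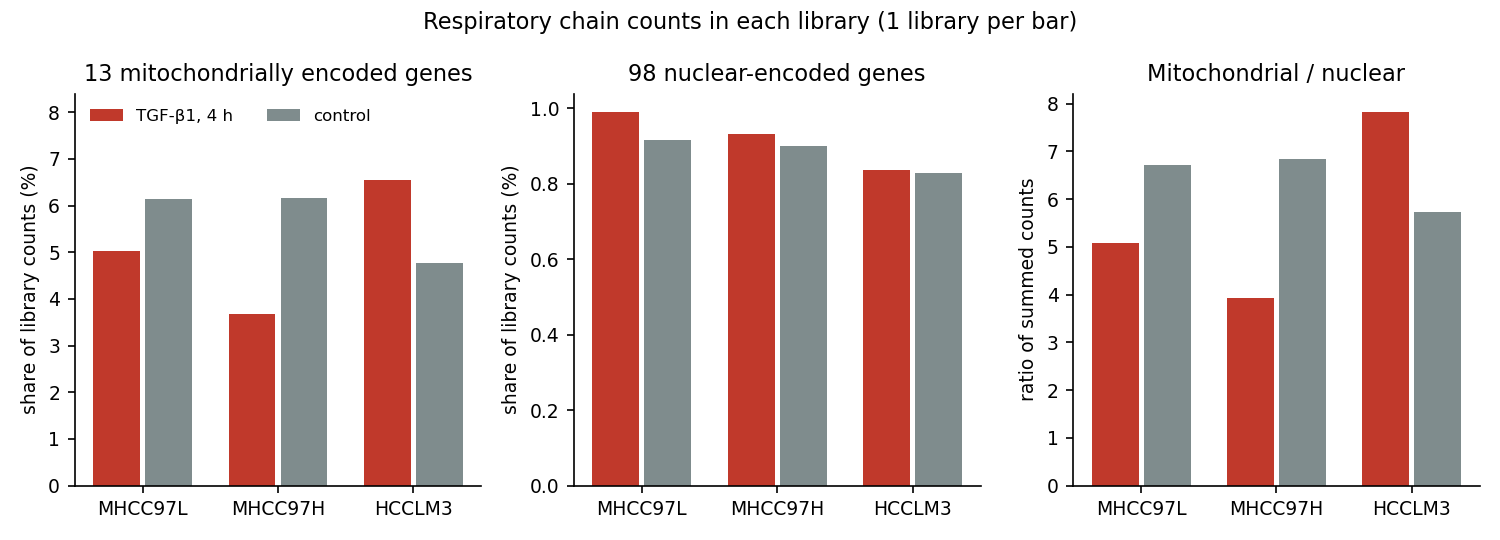
Share of each library's expected counts (percent) held by the 13 mitochondrially encoded genes (left) and the 98 nuclear-encoded genes (middle), and the ratio of the 2 sums (right), for each line after TGF-β1 (red) and in its control (grey), 1 library per bar. The ratio was 5.08 against 6.71 in MHCC97L and 3.93 against 6.85 in MHCC97H, but 7.82 against 5.74 in HCCLM3.

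The ratio of mitochondrial to nuclear counts was 5.08 after TGF-β1 and 6.71 in the control of MHCC97L, a log2 change of −0.40. In MHCC97H it was 3.93 after TGF-β1 and 6.85 in the control, a change of −0.80. In HCCLM3 it was 7.82 after TGF-β1 and 5.74 in the control, a change of 0.45. Each mosaic complex moved the same way. Complex I gave −0.51, −1.0 and 0.46 in MHCC97L, MHCC97H and HCCLM3, and complex III, whose mitochondrial gene is MT-CYB, gave −0.47, −0.97 and 0.47. Complex IV gave −0.37, −0.68 and 0.39, and complex V −0.47, −0.95 and 0.59. With counts per kilobase of exon in place of counts, the ratio itself was larger (8.81 to 17.4 after TGF-β1 and 13 to 15.9 in controls), and the changes were −0.43, −0.86 and 0.42. There is 1 library per line and condition, so none of these ratios has a test or an error between cultures.

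All 13 mitochondrial genes were lower after TGF-β1 in MHCC97L and in MHCC97H and higher in HCCLM3, also with library totals in place of TMM scaling. That order of signs was found in 11.6% of the 14176 genes tested and in 8 of the 92 nuclear members tested. MT-CO1, the catalytic subunit of complex IV, changed least in MHCC97L and MHCC97H. It had 12384, 10014 and 15931 CPM in the TGF-β1 libraries of MHCC97L, MHCC97H and HCCLM3, against 13591, 13487 and 11984 CPM in their controls. Its log2 changes were −0.13, −0.43 and 0.41. MT-ATP8, a membrane subunit of ATP synthase, had 397, 276 and 502 CPM in the TGF-β1 libraries of MHCC97L, MHCC97H and HCCLM3, against 537, 589.9 and 302 CPM in their controls. These are changes of −0.44, −1.10 and 0.73, the largest fall of the 13 genes in both MHCC97 lines.

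MT-ND6, transcribed from the opposite strand to the other 12, had 505, 337 and 758 CPM after TGF-β1 in MHCC97L, MHCC97H and HCCLM3, against 638, 634 and 431 CPM in the controls of those lines. Its changes of −0.34, −0.91 and 0.82 had the signs of the other 12, and the last was the highest in HCCLM3. The labels do not say whether the libraries keep strand, so reads of MT-ND6 and reads antisense to it cannot be told apart. MT-CYB, the cytochrome b of complex III, had 2571, 1818 and 3240 CPM after TGF-β1 in MHCC97L, MHCC97H and HCCLM3, against 3205, 3325 and 2249 CPM in controls. MT-ND4L, a small membrane subunit of complex I, had 1734, 1199 and 2169 CPM after TGF-β1 in those lines, against 2319, 2289 and 1827 CPM in controls. Its change of 0.25 was the lowest of the 13 in HCCLM3, while its overlapping neighbour MT-ND4 changed there by 0.56. The other complex I genes MT-ND1, MT-ND2, MT-ND3 and MT-ND5 changed by −0.32 to −0.24 in MHCC97L, by −0.83 to −0.64 in MHCC97H and by 0.53 to 0.78 in HCCLM3. MT-CO2 and MT-CO3, core subunits of complex IV, changed by −0.18 each in MHCC97L, by −0.71 and −0.68 in MHCC97H and by 0.48 and 0.59 in HCCLM3, and MT-ATP6, the proton channel subunit of ATP synthase, by −0.39, −0.98 and 0.68 in the 3 lines.

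**Figure D2:**
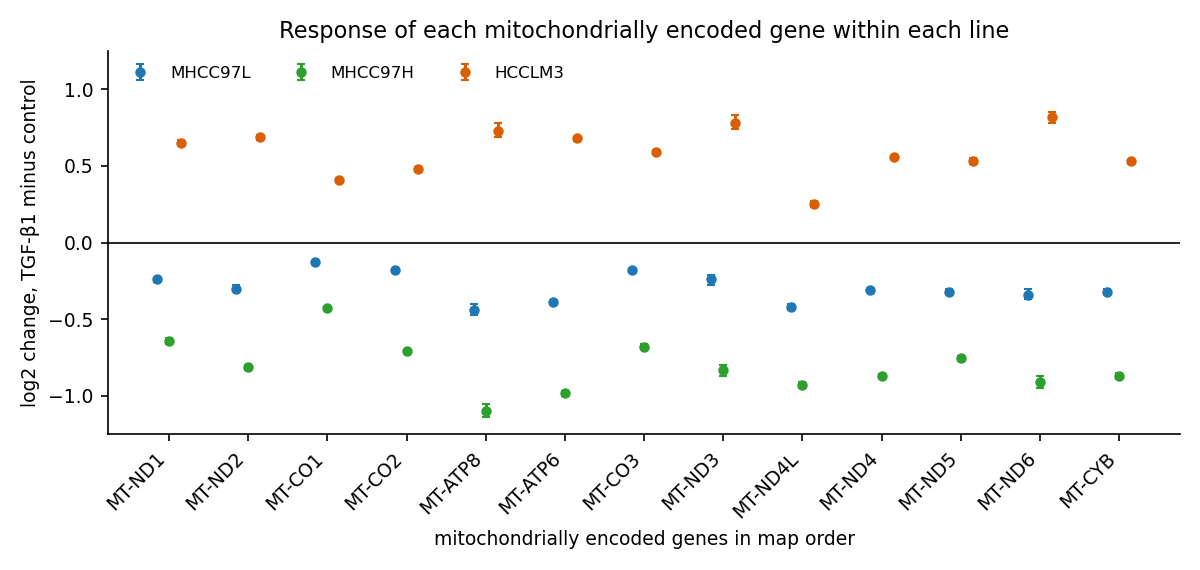
Log2 change (TGF-β1 minus control, prior count 2) of each mitochondrially encoded gene, in the order of the genes on mitochondrial DNA, in MHCC97L (blue), MHCC97H (green) and HCCLM3 (orange). Bars are 95% exact binomial counting intervals, which cover counting error only. All 13 points lie at 0.25 or above in HCCLM3 and below 0 in both MHCC97 lines.

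No mitochondrial gene passed the test of TGF-β1 over the 3 lines. Of the 13, 0 passed an adjusted p of 0.05 and 0 had an unadjusted p under 0.05 (edgeR's quasi-likelihood fit with line as a term, Benjamini-Hochberg over 14176 genes), and DESeq2 also called 0. In the same fit 14.4% of all genes passed. The median fitted change was −0.15, and the lines moved in opposite directions, with wide standard errors (0.482 for MT-ND6, at a fitted change of −0.15). With 1 library per line and condition, p rests on how far the lines differ in their response, and separate cultures are not stated in the labels. Without MHCC97H the median was 0.15, and without HCCLM3 it was −0.56. In the fit without HCCLM3 MT-ND1, MT-ND5 and MT-CO1 passed as lower, where 12.7% of all genes were called lower.

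The nuclear genes moved less within each line, and mostly upward. Over the 92 genes tested, the median change after TGF-β1 was 0.13, 0.05 and 0.10 in MHCC97L, MHCC97H and HCCLM3, beside 0.01, −0.01 and −0.01 over all genes. Of the 92, 79 were higher in MHCC97L, 56 in MHCC97H and 67 in HCCLM3. In all 3 lines 33 were higher, which is 35.9% of the nuclear genes, against 24.8% of all genes tested. With library totals in place of TMM scaling the shares were 25.0% and 17.5%, and the nuclear medians 0.09, 0.01 and 0.03. The 8 nuclear genes that shared the signs of the mitochondrial genes were NDUFA10, NDUFB4, NDUFC1 and NDUFV3 of complex I, UQCRC2 of complex III, NDUFA4 of complex IV, and ATP5MF and ATP5PF of complex V, named after their values were seen. Some of the signs rest on small changes, such as 0.00 for UQCRC2 in HCCLM3. ATP5MF, a subunit of the membrane part of ATP synthase, had 223, 153 and 215 CPM after TGF-β1 in MHCC97L, MHCC97H and HCCLM3, against 238, 231 and 148 CPM in controls, and shares exons with the read-through locus ATP5MF-PTCD1, whose changes were −0.07, 0.21 and −0.57 beside −0.10, −0.60 and 0.54. The pair moved in opposite directions in MHCC97H and HCCLM3, and reads cannot be placed surely between them.

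**Figure D3:**
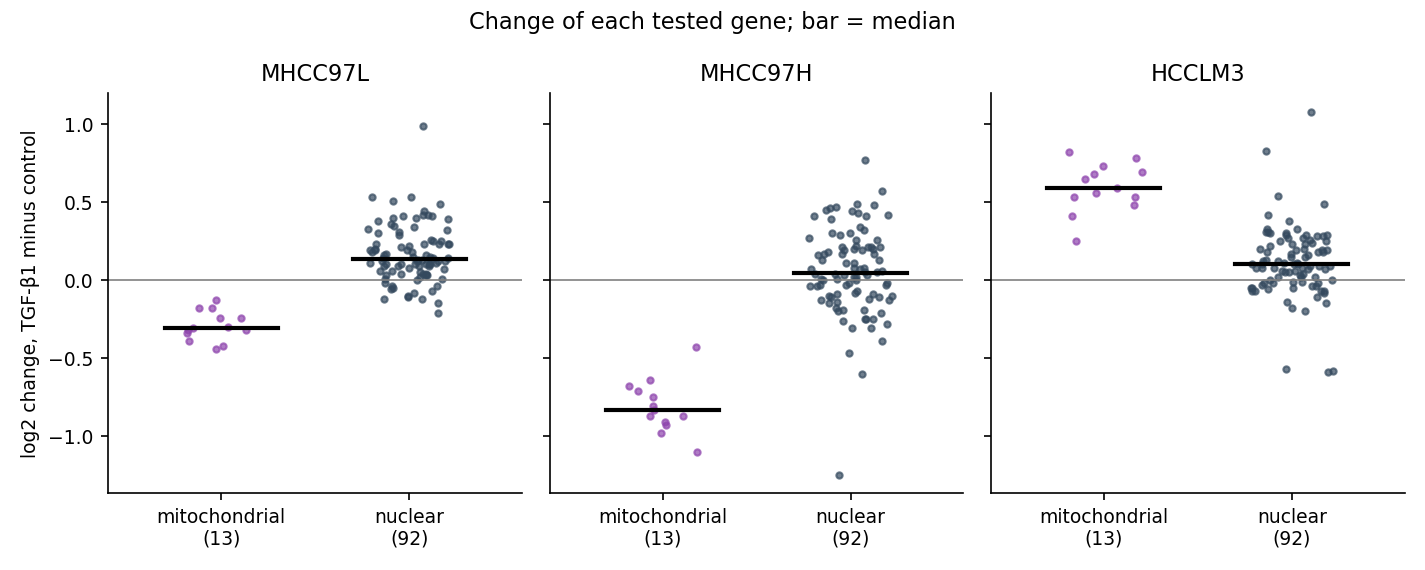
Log2 change (TGF-β1 minus control) of the 13 mitochondrially encoded and the 92 tested nuclear-encoded genes in each line, 1 point per gene, with the median as a bar. The medians are −0.31 and 0.13 in MHCC97L, −0.83 and 0.05 in MHCC97H, and 0.59 and 0.10 in HCCLM3.

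Short messages as a class moved upward in these libraries. Over 10459 genes with a mean of 5 CPM or more, the Spearman correlation of the change with the length of the longest transcript was −0.387, −0.324 and −0.209 in MHCC97L, MHCC97H and HCCLM3, a description across genes of single pairs of libraries. The median longest transcript was 1.51 kb for the nuclear members and 3.78 kb for those genes. The 840 genes no longer than the median nuclear member had median changes of 0.19, 0.15 and 0.09 in MHCC97L, MHCC97H and HCCLM3, beside 0.13, 0.05 and 0.10 for the nuclear members. The part of length in the changes of the members was not tested. The mitochondrial genes, at a median of 0.784 kb, were shorter still.

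After TGF-β1, 8 nuclear genes rose and 0 fell. They were UQCR11, a small subunit of complex III, and the complex I accessory subunits NDUFC2, NDUFB9, NDUFA11, NDUFA13, NDUFB6, NDUFB1 and NDUFA2, which surround the catalytic core. The rises were small, between 0.28 and 0.37 on the log2 scale. UQCR11 (ENSG00000127540.11, chr19:1597172-1605490, − strand) had 129.6, 137 and 115 CPM in the TGF-β1 libraries of MHCC97L, MHCC97H and HCCLM3, against 96.7, 100 and 96.3 CPM in their controls. Every TGF-β1 library lay above every control. The rise was 0.37 (SE 0.0693, 1.3-fold, n = 3 lines) and an adjusted p = 0.0102 (Benjamini-Hochberg, edgeR). The 8 of 92 nuclear genes called higher (8.7%) are close to the share of all genes, 7.79%, while 0 of 92 were called lower against 6.65% of all genes. Without adjustment 23 were higher and 0 lower at p under 0.05 (edgeR), beside 2208 and 2117 of all 14176 genes. DESeq2 called 8 higher and 0 lower, beside 6.22% and 3.82% of all genes, and its 8 were not the same set. NDUFB6, NDUFB1 and NDUFA2 did not pass in DESeq2 (adjusted p 0.121, 0.126 and 0.145).

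NDUFC2 had 99.6, 99.2 and 74.7 CPM after TGF-β1 in MHCC97L, MHCC97H and HCCLM3, against 78.5, 73.5 and 65.7 CPM in controls. It rose by 0.32 (SE 0.073; adjusted p = 0.0222, edgeR). NDUFB9 had 287, 293 and 196 CPM after TGF-β1, against 224, 221 and 177 CPM in controls, and rose by 0.30. Both were higher after the ligand in each line, though the HCCLM3 level after TGF-β1 overlapped the controls of the other lines. NDUFA13, also called GRIM-19 and known as a STAT3-binding protein too, had 138, 125 and 102 CPM after TGF-β1, against 96.0, 90.1 and 97.0 CPM in controls. It rose by 0.36 (SE 0.0934; adjusted p = 0.0355, edgeR), with changes of 0.53 in MHCC97L and 0.48 in MHCC97H but 0.07 in HCCLM3. Every TGF-β1 library still lay above every control, as for NDUFA11 and NDUFB6, whereas the conditions overlapped for NDUFB1 and NDUFA2. NDUFA11, a membrane subunit whose loss disturbs complex I assembly, averaged 101 ± 7.40 CPM after TGF-β1 and 82.9 ± 2.01 CPM in controls (SD, n = 3 lines each). NDUFB6, NDUFB1 and NDUFA2 averaged 30.0 ± 3.48, 32.5 ± 6.48 and 28.6 ± 4.72 CPM after TGF-β1, against 24.3 ± 1.51, 26.3 ± 3.34 and 23.1 ± 2.15 CPM in controls (SD, n = 3 lines each).

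**Figure D4:**
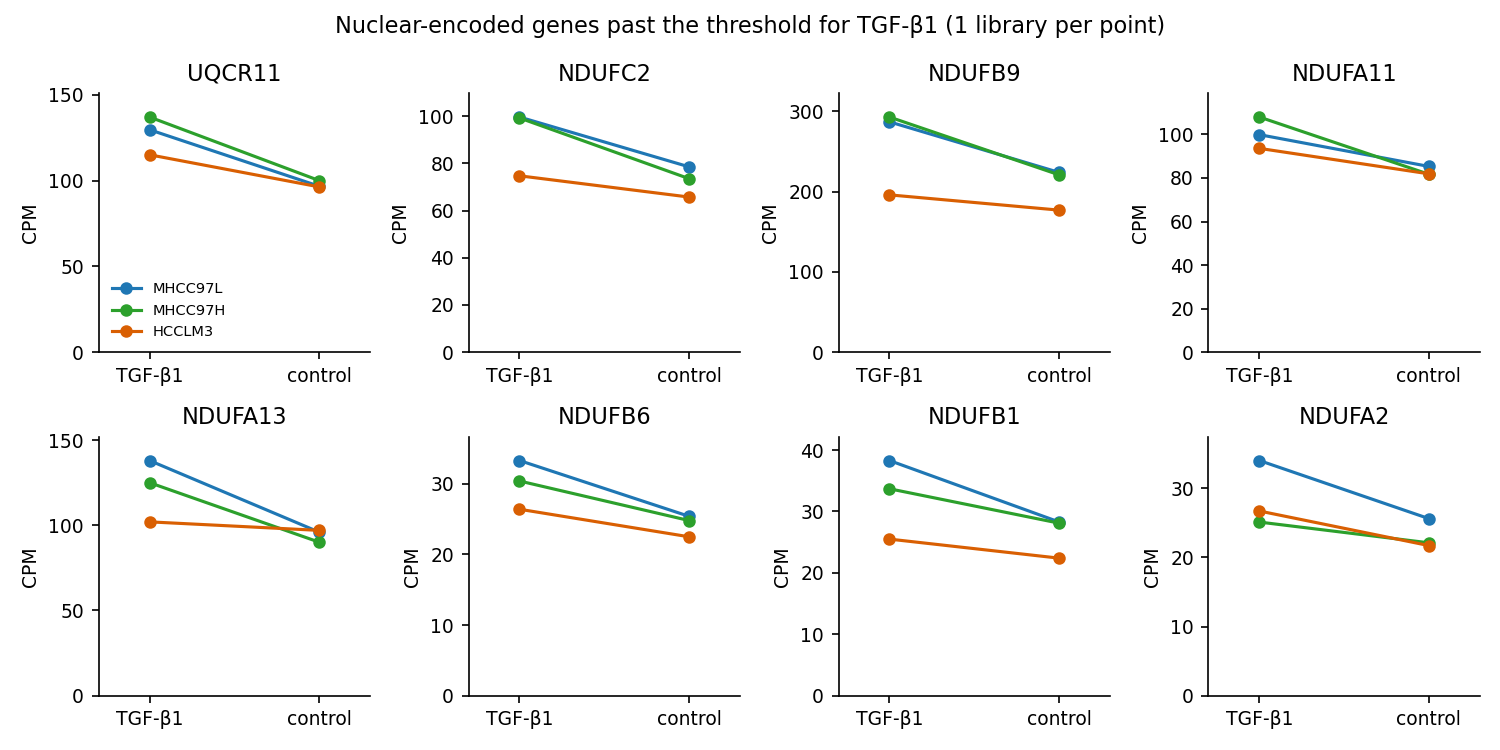
Level (CPM) of the 8 nuclear-encoded genes past the threshold for TGF-β1, after TGF-β1 (left) and in the control (right), with a line for each cell line and 1 library per point. UQCR11 shows no overlap of the conditions, while NDUFA13 is nearly level in HCCLM3, at 102 CPM after TGF-β1 and 97.0 CPM in the control.

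None of these 8 had whole expected counts in all libraries, and 7 of the 8 share exon sequence with another annotated gene, as do 51 of the 92 nuclear members tested. NDUFC2 overlaps the read-through locus NDUFC2-KCTD14, and NDUFA13 overlaps YJEFN3 on the same strand. Among the nuclear members with whole counts 0 of 41 passed, against 8 of the other 51, while among all genes 16.9% of those with whole counts and 12.3% of the others did. The part of read division in the 8 calls was not tested. The calls depended on the lines: without MHCC97L the fit called 0 nuclear genes higher, without MHCC97H it called 2 and without HCCLM3 it called 22. In the same fits 2.97%, 4.13% and 15.0% of all genes were called higher. With library totals the fit called 2 nuclear genes, UQCR11 and NDUFC2, beside 5.69% of all genes called higher. Of the liver markers HNF4A, SERPINA1, KRT8 and KRT18 were called higher after TGF-β1 and APOB lower. The fibroblast marker COL1A1 was higher, at 7.2, 5.67 and 5.57 CPM after TGF-β1 in MHCC97L, MHCC97H and HCCLM3, against 0.304, 0.476 and 0.425 CPM in controls, and the endothelial marker PECAM1 was lower (−0.39, adjusted p = 0.0342, edgeR). The part of these markers in the 8 calls was not tested. Over all genes, the share of calls that were higher was 53.9% with TMM and 37.2% with library totals.

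By complex, complex I had 7 of 46 nuclear genes called higher and complex III 1 of 8, while 0 of 4 passed in complex II, 0 of 15 in complex IV and 0 of 19 in complex V, beside 7.79% of all genes. Whether the complexes differ from each other was not tested. Median fitted changes were 0.11, 0.10, 0.06, 0.11 and 0.06 for complexes I, III, II, IV and V, beside 0.00 over all genes. None of the 8 NDUFAF assembly factors passed (median 0.08). SDHA, the flavoprotein of complex II that oxidises succinate, had 229, 237 and 144 CPM after TGF-β1 in MHCC97L, MHCC97H and HCCLM3, against 223, 198 and 158 CPM in controls. SDHB, the iron-sulfur subunit, stood at 69.9 to 88.6 CPM after TGF-β1 and 72.2 to 73.5 CPM in controls. SDHC and SDHD, the membrane anchors, stood at 70.4 to 78.0 and 70.4 to 79.7 CPM after TGF-β1, and at 68.8 to 77.2 and 70.3 to 71.8 CPM in controls. ATP5IF1, which inhibits ATP hydrolysis by complex V, stood at 32.8 to 39.8 CPM after TGF-β1 and 34.7 to 35.9 CPM in controls (change 0.06, SE 0.085; adjusted p = 0.708, edgeR).

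Several complex IV subunits come as paired isoforms, and the lines used the widely expressed one. COX4I1 stood at 196 to 206 CPM after TGF-β1 and 159 to 207 CPM in controls, and its hypoxia-linked isoform COX4I2 was at 0 in every library. The heart and muscle isoform COX6A2 was also at 0, beside 389.6 to 515 CPM after TGF-β1 and 372 to 393 CPM in controls for COX6A1. A count of 0 allows up to 3 counts, or 0.129 to 0.141 CPM in a TGF-β1 library and 0.131 to 0.162 CPM in a control, before TMM scaling. The muscle isoform COX7A1 did not exceed 0.242 CPM after TGF-β1 or 0.238 CPM in controls, beside 58.4 to 79 CPM after TGF-β1 and 55.7 to 69.4 CPM in controls for COX7A2, and the testis isoform COX8C did not exceed 0.0222 CPM in any library. COX6B2, a testis isoform expressed in some tumours, was at 0.801 to 1.56 CPM after TGF-β1 and 0.515 to 0.898 CPM in controls, beside 225 to 279 and 212 to 219 CPM for COX6B1. COX7B2, a testis isoform of COX7B, reached 6 to 8.72 CPM after TGF-β1 and 4.87 to 8.18 CPM in controls. NDUFA4L2, a paralog of the complex IV subunit NDUFA4 that hypoxia induces, had 64.2, 39.6 and 61.5 CPM after TGF-β1 in MHCC97L, MHCC97H and HCCLM3, against 32.3, 31.3 and 63.6 CPM in controls. It was higher in both MHCC97 lines, by 0.99 and 0.34, and changed by −0.05 in HCCLM3, with an adjusted p of 0.324 (edgeR). With COX4I2, COX6A2, COX7A1 and COX8C, the retrocopy-like ATP5MGL and UQCRHL make up the 6 nuclear members too low to be tested.

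The 3 genes for the c ring of ATP synthase encode one mature protein. ATP5MC1, ATP5MC2 and ATP5MC3 stood at 35 to 65.4, 273 to 358 and 103 to 137 CPM after TGF-β1, against 34.6 to 62.2, 257 to 298 and 95 to 129 CPM in controls. Per kilobase of exon ATP5MC2 was the highest of the 3 in each library, at 68.3 to 89.7 after TGF-β1 and 64.5 to 74.7 in controls. None passed the test for TGF-β1 (adjusted p 0.529, 0.105 and 0.967, edgeR).

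Nuclear respiratory genes are known as targets of the factors NRF1, GABP (an ETS factor), YY1 and SP1. RefSeq promoter windows (GRCh38.p14, 250 bases before to 50 after the start) were found for 80 of the 98 nuclear members, as 99 windows, since some genes have more than 1 start. The letters GCGCANGCG (NRF1), searched on both strands like all motifs here, were in 25.3% of the members' windows and in 7.52% of all 35116 windows. CCGGAAG (ETS) was in 25.3% and 10.3%, AANATGGCG (YY1) in 21.2% and 3.19%, GGGCGG (SP1) in 59.6% and 45%, and TATAAA in 7.07% and 11.5%. A match is a description of letters and not a bound site. The windows of UQCR11 and NDUFA13, both higher after TGF-β1, are shown with the NRF1, ETS, YY1 and SP1 letters in capitals. They lie at chr19:1605413-1605712 on the − strand and chr19:19515975-19516274 on the + strand.
UQCR11: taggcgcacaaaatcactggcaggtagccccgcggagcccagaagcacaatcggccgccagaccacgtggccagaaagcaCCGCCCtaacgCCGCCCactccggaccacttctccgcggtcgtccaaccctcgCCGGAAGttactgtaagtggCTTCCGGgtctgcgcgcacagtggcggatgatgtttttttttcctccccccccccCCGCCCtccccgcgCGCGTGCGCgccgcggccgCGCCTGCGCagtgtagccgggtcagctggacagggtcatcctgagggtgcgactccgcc
NDUFA13: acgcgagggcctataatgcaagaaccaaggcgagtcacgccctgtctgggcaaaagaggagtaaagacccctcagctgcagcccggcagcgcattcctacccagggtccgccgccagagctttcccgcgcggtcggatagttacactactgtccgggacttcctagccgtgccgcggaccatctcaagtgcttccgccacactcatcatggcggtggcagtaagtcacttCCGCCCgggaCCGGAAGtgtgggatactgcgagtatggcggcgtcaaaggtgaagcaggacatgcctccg
The UQCR11 window holds the NRF1, ETS and SP1 letters, the NDUFA13 window ETS and SP1, and that of NDUFA11 NRF1 alone. The windows of NDUFB6 and NDUFB1 hold none of the 5 motifs.

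The second comparison sets HCCLM3 against its relatives, with treatment as a term. The 2 libraries of a line differ in treatment, so p measures the spread between them after the shared treatment effect. It does not measure the spread between cultures. A line's own response to TGF-β1 stays in that spread, as for the mitochondrial genes, whose responses had opposite signs in the lines. Against MHCC97L 28 of 92 were lower and 7 higher, and against MHCC97H 13 were lower and 5 higher. Among all genes, 14.8% were lower and 15.0% higher against MHCC97L (29.8% called), and 13.9% and 13.3% against MHCC97H (27.2% called), by edgeR with an adjusted p of 0.05. The members' share of lower calls thus stood above that of all genes against MHCC97L and close to it against MHCC97H. The median difference of the nuclear members was −0.19 against MHCC97L and −0.10 against MHCC97H, beside 0.00 over all genes in each. The 2 comparisons share the HCCLM3 libraries. Of the 13 mitochondrial genes 0 passed in either, with 0 at an unadjusted p under 0.05 (edgeR) and 0 called by DESeq2. Their median difference was −0.03 against MHCC97L and 0.26 against MHCC97H. Their median difference against MHCC97L was 0.49 without the HCCLM3 control and −0.6 without the HCCLM3 TGF-β1 library. In these fits the treatment term came from the MHCC97 lines alone, where the mitochondrial genes fell. The differences therefore carry the response of HCCLM3 itself, and no line difference is drawn from them.

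COX5A, the complex IV subunit that binds a thyroid hormone metabolite, had the largest difference among the genes called in each comparison. It had 80.3 CPM after TGF-β1 and 66.7 CPM in the control of HCCLM3, against 144 and 141 CPM in MHCC97L and 118 and 140.3 CPM in MHCC97H. The HCCLM3 libraries did not overlap those of the other lines. The differences were −0.95 (SE 0.118) from MHCC97L and −0.81 (SE 0.118) from MHCC97H, with adjusted p of 0.000447 and 0.00125 (edgeR). ATP5MC1, a c ring gene, had 35 and 34.6 CPM in HCCLM3 after TGF-β1 and in the control, against 65.4 and 62.2 CPM in MHCC97L and 48.4 and 44.2 CPM in MHCC97H. It differed by −0.88 (SE 0.0872) from MHCC97L and −0.41 (SE 0.0876) from MHCC97H, with adjusted p of 0.000128 and 0.00789 (edgeR). NDUFAF1, an early assembly factor of complex I, had 5.42 and 5.63 CPM in HCCLM3 after TGF-β1 and in the control, against 8.89 and 10.3 CPM in MHCC97L and 9.23 and 9 CPM in MHCC97H.

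The other genes named as lower were NDUFC1, NDUFS6 and NDUFB9 of complex I, SDHA of complex II, COX7B of complex IV and ATP5ME of complex V. SDHA had 144 and 158 CPM in HCCLM3 after TGF-β1 and in the control, below the 229 and 223 CPM of MHCC97L and the 237 and 198 CPM of MHCC97H, with differences of −0.58 and −0.52. NDUFC1, NDUFS6 and ATP5ME differed by −0.77, −0.58 and −0.69 from MHCC97L and by −0.65, −0.37 and −0.45 from MHCC97H. COX7B differed by −0.50 and −0.33, and NDUFB9 by −0.44 and −0.45. By complex, the calls against MHCC97L were 0 higher and 9 lower of 19 nuclear genes in complex V, 1 and 6 of 15 in complex IV, 1 and 2 of 8 in complex III, 0 and 1 of 4 in complex II, and 5 and 10 of 46 in complex I. Against MHCC97H complex V had 0 higher and 2 lower. Whether the complexes differ from each other was not tested.

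A smaller group was higher in HCCLM3. NDUFS1, the largest subunit of complex I, which carries iron-sulfur clusters, had 54.9 and 55.7 CPM in HCCLM3 after TGF-β1 and in the control, against 36.5 and 38.2 CPM in MHCC97L and 41.2 and 44.5 CPM in MHCC97H. It was higher by 0.57 (SE 0.0866; adjusted p = 0.00131, edgeR) and 0.37 (SE 0.0862; adjusted p = 0.0126, edgeR). UQCRC1, a core subunit of complex III, had 201 and 211 CPM in HCCLM3, against 174 and 139 CPM in MHCC97L and 175 and 131 CPM in MHCC97H. NDUFA10, an accessory subunit in the complex I matrix arm, had 92.8 and 86.6 CPM in HCCLM3, against 68.0 and 70.0 CPM in MHCC97L and 67.5 and 72.1 CPM in MHCC97H. In all 3 genes the HCCLM3 libraries lay above the other 4. The assembly factor NDUFAF3 was higher by 0.29 and 0.47. NDUFA5, an accessory subunit, was higher by 0.42 and 0.33, but its call against MHCC97H (adjusted p = 0.0476, edgeR) was lost in 10 of 13 alternatives, with adjusted p from 0.0135 to 0.278, and its call against MHCC97L in 4 of 13. NDUFB3 and COX7B2 were called higher against MHCC97L alone (0.31 and 0.64), with 0.26 and 0.29 against MHCC97H.

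**Figure D5:**
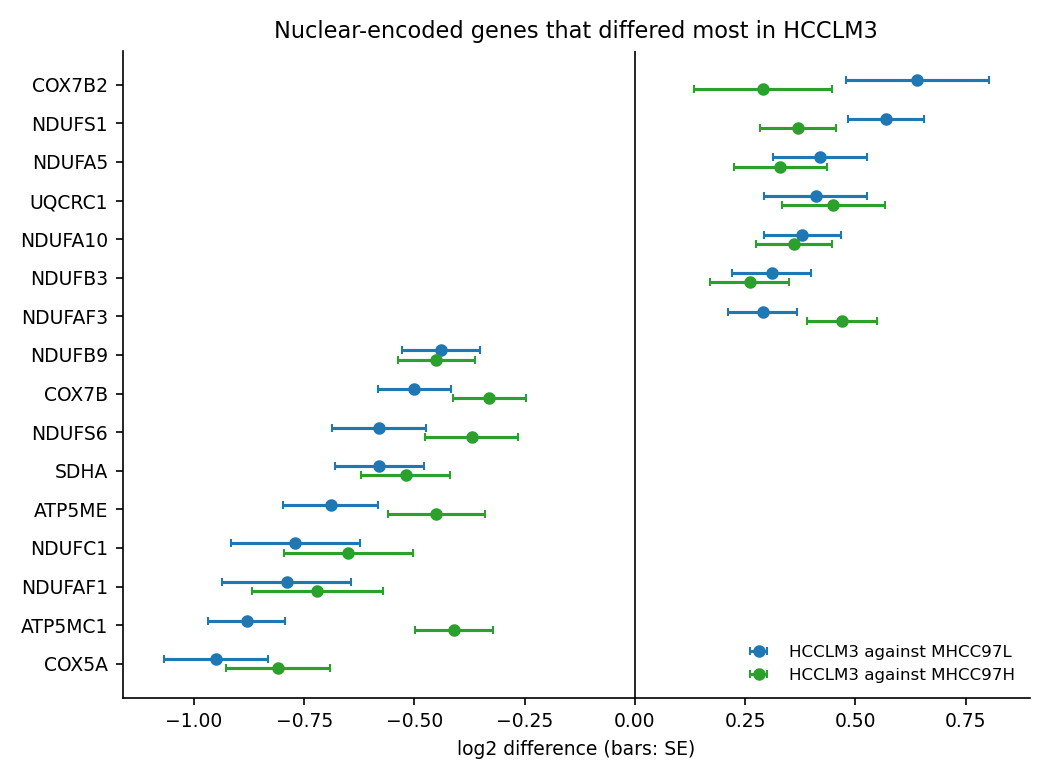
Log2 difference of HCCLM3 from MHCC97L (blue) and from MHCC97H (green), with SE, for the nuclear-encoded genes with the largest differences among those that passed in either comparison. COX5A lies lowest, at −0.95 and −0.81, and NDUFS1 is higher by 0.57 and 0.37.

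The promoter windows of COX5A (chr15:74938024-74938323, − strand) and NDUFS1 (chr2:206159395-206159694, − strand), the genes of clearest opposite difference, are shown with the same letters in capitals.
COX5A: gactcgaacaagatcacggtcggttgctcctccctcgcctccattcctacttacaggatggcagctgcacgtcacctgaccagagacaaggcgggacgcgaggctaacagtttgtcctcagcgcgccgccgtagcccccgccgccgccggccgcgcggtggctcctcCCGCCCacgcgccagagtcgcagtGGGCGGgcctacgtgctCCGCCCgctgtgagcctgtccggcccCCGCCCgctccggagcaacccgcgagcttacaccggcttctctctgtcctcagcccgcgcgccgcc
NDUFS1: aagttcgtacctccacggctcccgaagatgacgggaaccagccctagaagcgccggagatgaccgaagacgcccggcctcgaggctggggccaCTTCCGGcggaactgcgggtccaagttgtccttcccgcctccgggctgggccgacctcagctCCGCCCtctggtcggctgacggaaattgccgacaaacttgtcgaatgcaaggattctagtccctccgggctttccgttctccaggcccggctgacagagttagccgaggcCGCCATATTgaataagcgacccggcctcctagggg
The COX5A window holds the SP1 letters 4 times and none of the other motifs. The NDUFS1 window, of 1 of its annotated starts, holds ETS, SP1 and, just after the start, YY1. COX5A had whole counts and no exon overlap with another gene. NDUFS1 did not have whole counts in all libraries, and its exons overlap AC007383.3 and EEF1B2 on the other strand and GCSHP3 on the same strand.

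COX5A, ATP5MC1, NDUFC1, ATP5ME and NDUFS1 passed against MHCC97L under all 13 alternatives tried. The counts leaned on MHCC97L more than on the other lines: leaving out its TGF-β1 library or its control left 7 of 92 nuclear genes lower against it in either case, and 2 or 1 higher. In those fits 7.21% and 7.37% of all genes were lower, so the members' share of lower calls was then close to that of all genes. Against MHCC97H, leaving out either MHCC97L library gave 7 lower and 3 higher. Among all genes 11.1% were lower and 10.4% higher without its TGF-β1 library, and 10.8% and 10.2% without its control. Leaving out any 1 library left its line with 1 library, and the number of lower calls varied more when the library was of MHCC97H or HCCLM3. Over all genes too, calls against MHCC97L were fewest in the fits without an MHCC97L library, so that drop was not particular to the members. COX5A, SDHA, NDUFB9 and NDUFAF3 passed against MHCC97H under all 13 alternatives. Markers of the liver cell moved with the line too. Of 9 liver markers 0 were higher and 7 lower against MHCC97L, and 0 and 8 against MHCC97H. Their summed level was 6582 CPM after TGF-β1 and 5898 CPM in the control of HCCLM3. The sums were 9311 and 7675 CPM in MHCC97L and 9313 and 6822 CPM in MHCC97H. The keratin gene KRT8 made up most of each sum, with 4744 and 4293 CPM in HCCLM3. DCN and LUM of the stellate cell list and CD68 were called higher in HCCLM3 against both lines, and PECAM1 and KDR of the endothelial list lower. COL3A1 of the stellate cell list had 11.7 CPM after TGF-β1 and 14.4 CPM in the control of HCCLM3. In the MHCC97 libraries it had 0.0435 to 0.381 CPM. It was not tested, since the count filter was set by treatment and can leave out a gene present in 1 line alone. Of the 5 stellate cell and fibroblast markers tested, 0 were called lower. The part of these markers in the respiratory gene differences was not tested.

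The MHCC97 sublines differed in 1 nuclear member, and 0 were called higher in MHCC97H (1 at an unadjusted p under 0.05, edgeR). ATP5MC1 was lower in MHCC97H, with 48.4 and 44.2 CPM after TGF-β1 and in the control, against 65.4 and 62.2 CPM in MHCC97L. The difference was −0.46 (SE 0.0857; adjusted p = 0.0296, edgeR), where 2.45% of all genes were called (1.37% higher and 1.09% lower). Its adjusted p ran from 0.00048 to 0.447 over the alternatives and was above 0.05 without any 1 of the 4 libraries of these lines. Of the 13 mitochondrial genes 0 were called by edgeR or DESeq2, with 0 at an unadjusted p under 0.05 (edgeR).

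Other genes of the organelle gave the setting of these changes. Among 16 tested regulators of mitochondrial transcription and biogenesis, 1 rose and 2 fell after TGF-β1, beside 7.79% and 6.65% of all genes. POLRMT, the mitochondrial RNA polymerase, had 105, 130.1 and 89.4 CPM after TGF-β1 in MHCC97L, MHCC97H and HCCLM3, against 80.1, 82.2 and 73.7 CPM in controls, and rose by 0.45 (adjusted p = 0.0109, edgeR). PPARGC1B, a coactivator of nuclear respiratory genes, fell to 6.73, 5.98 and 5.68 CPM after TGF-β1, against 13, 12.3 and 9.45 CPM in controls, a change of −0.92 (adjusted p = 0.00164, edgeR). MTERF4, which acts in mitochondrial ribosome assembly, fell by 0.48. All 3 moved the same way in each line, as genes that pass this test tend to, since p rests on how far the lines differ. PPARGC1A was at 0 in every library. TFAM, which packages mitochondrial DNA and starts its transcription, stood at 30.2 to 33.6 CPM after TGF-β1 and 30.7 to 32.5 CPM in controls.

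None of 19 genes of mitochondrial RNA processing, 9 of mitochondrial DNA maintenance, 13 of the citric acid cycle or 4 carriers passed for TGF-β1 (edgeR; at an unadjusted p under 0.05 these lists had 2 higher and 4 lower, 0 and 2, 1 and 1, and 0 and 0). Over all genes, 2208 of 14176 were higher and 2117 lower at that unadjusted p (edgeR). Of 42 respiratory assembly factors outside the naming rule 2 rose and 1 fell, smaller shares than the 7.79% and 6.65% of all genes. COA7, needed for complex IV assembly, fell to 25.5, 22.8 and 22 CPM after TGF-β1 in MHCC97L, MHCC97H and HCCLM3, against 36.9, 35.3 and 28.7 CPM in controls (−0.52, adjusted p = 0.00573, edgeR). ECSIT, which assembles complex I, and COA6, a copper factor of complex IV, rose by 0.39 and 0.33. Cytochrome c (CYCS) and cytochrome c1 (CYC1) did not pass, with changes of 0.10 and 0.16. Between lines, POLG, the mitochondrial DNA polymerase, had 42.9 and 47.8 CPM in HCCLM3 after TGF-β1 and in the control, against 68.4 and 69.3 CPM in MHCC97L and 78.5 and 69.5 CPM in MHCC97H. RNASEH1, which removes RNA from RNA-DNA hybrids, differed by −1.21 from MHCC97L and −0.89 from MHCC97H.

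Against MHCC97L, HCCLM3 had 0 higher and 4 lower of 42 assembly factors outside the naming rule, and against MHCC97H 1 and 5. The lower calls are no larger a share than the 14.8% and 13.9% of all genes. ATPAF2, an assembly factor of ATP synthase, differed by −0.53 and −0.40, and COA3 and COX17, which serve complex IV, by −0.37 and −0.32 from MHCC97L and −0.33 and −0.29 from MHCC97H. In the citric acid cycle 1 of 13 genes was higher and 4 were lower against MHCC97L, with IDH3A, a subunit of isocitrate dehydrogenase, at −0.59 and OGDH, of the oxoglutarate dehydrogenase complex, at 0.48. Against MHCC97H 0 were higher and 3 lower. Of the ADP/ATP carriers, SLC25A4 was higher by 0.53 and 0.47, and SLC25A5 differed by −0.41 and −0.33 from MHCC97L and MHCC97H. SLC25A6 did not pass, at 0.01 and −0.01 (adjusted p 0.918 and 0.927, edgeR). FASTKD2, an RNA-binding protein of the organelle, was higher by 0.48 and 0.36. SLIRP, which stabilises mitochondrial messages, differed by −0.47 from MHCC97L, with an adjusted p of 0.112 against MHCC97H (edgeR).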

How the data were processed

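RNA sequencing values of 6 libraries were used. The authors deposited 1 table per library with expected counts per Ensembl gene ID, taken as such from the values, since 63.64% to 64.56% in a library were whole. The build hg38 and the tools Cuffdiff 1.3.0, Cufflinks 2.2.1 and TopHat2 2.1.1 stand in the submitters' processing notes with no role, and the program that counted is not given in the sources used. Symbols came from the reference gene name table and GENCODE 29. A few genes of these complexes are not reported here. The members and lists were chosen with earlier results of these data known.

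Expected counts were rounded to whole numbers. Genes kept by filterByExpr (14176) were fitted with edgeR 4.0.16 in R 4.3.3 (TMM factors 0.9715 to 1.029, quasi-likelihood, robust, terms for line and treatment), with Benjamini-Hochberg adjustment at 0.05. The code was checked on simulated counts. The line pairs the libraries, as the labels give each line with and without ligand. The deviations of a line's pair correlated at 0.709, 0.578 and 0.801 for MHCC97L, MHCC97H and HCCLM3. Within a line, changes are log2 CPM differences with a prior count of 2 and no test, with 95% exact binomial intervals. Intervals and floors (3 counts) cover counting error only.

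All mitochondrial members are named. For TGF-β1, up to 12 members per direction past the threshold at a mean of 5 CPM or more are named by smallest p, and for pairs of lines up to 8 per direction by size. Isoform pairs, the SDH genes, ATP5IF1 and, from other lists, up to 4 called genes per direction are also named. Alternatives covered scaling, DESeq2 1.42.0, filters, rounding, the pairing, left-out libraries and gene length. Figures were drawn with matplotlib 3.10.9.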

Additional observations from a re-analysis of the deposited data

Results flagged for a closer look

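Opposite directions in the lines drew attention to the results below: both MHCC97 lines changed one way after TGF-β1 and HCCLM3 the other. Each value below is the log2 change in HCCLM3 minus the mean of the changes in MHCC97L and MHCC97H. With 1 library per line and condition the difference was not tested.

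The log2 ratio of mitochondrial to nuclear counts differed by 1.05. Among the complex I genes of mitochondrial DNA the difference was 1.1 for MT-ND1, 1.24 for MT-ND2, 1.32 for MT-ND3, 1.14 for MT-ND4, 0.92 for MT-ND4L, 1.07 for MT-ND5 and 1.44 for MT-ND6. It was 1.12 for MT-CYB of complex III. The complex IV genes MT-CO1, MT-CO2 and MT-CO3 gave 0.69, 0.92 and 1.02, and the ATP synthase genes MT-ATP6 and MT-ATP8 gave 1.36 and 1.5. All 13 had the same sign.

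Of the 92 nuclear genes tested, 8 had the signs of the mitochondrial genes. The difference was 0.89 for ATP5MF and 0.58 for ATP5PF of complex V, 0.56 for NDUFA4 of complex IV and 0.26 for UQCRC2 of complex III. In complex I it was 0.54 for NDUFC1, 0.51 for NDUFB4, 0.2 for NDUFV3 and 0.17 for NDUFA10. Some of the signs rest on small changes, such as 0.00 for UQCRC2 in HCCLM3 and −0.02 for NDUFV3 in MHCC97L.

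Others had the opposite signs, higher after TGF-β1 in both MHCC97 lines and lower in HCCLM3. NDUFA4L2 differed by −0.71. In complex I the difference was −0.54 for NDUFS7, −0.43 for NDUFA3, −0.41 for NDUFV1, −0.28 for NDUFS3 and −0.14 for NDUFA9, and the assembly factors NDUFAF7 and NDUFAF6 gave −0.26 and −0.24. SDHB, SDHA and SDHC of complex II gave −0.3, −0.29 and −0.07. UQCRC1, UQCRFS1 and UQCRQ of complex III gave −0.44, −0.27 and −0.17, COX6A1 and COX4I1 of complex IV −0.44 and −0.27, and ATP5MG and ATP5F1A of complex V −0.2 and −0.17. Many of these changes in HCCLM3 were small, such as −0.01 for COX4I1 and COX6A1, and NDUFAF7 changed by 0.00 in MHCC97H.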

How the results depend on the processing

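Both directions of the ratio of mitochondrial to nuclear counts, lower in the MHCC97 lines and higher in HCCLM3, held under every alternative tried. Per kilobase of exon its changes were −0.43, −0.86 and 0.42 in MHCC97L, MHCC97H and HCCLM3. Per kilobase of the longest transcript, an alternative chosen after seeing the data, they were −0.44, −0.85 and 0.42. They were −0.45, −0.88 and 0.49 with whole-count genes only, and −0.40 in MHCC97L with core subunits only. For TGF-β1, nuclear genes called higher, 8 in the pairing by line, were 5 with upper-quartile scaling, 2 with library totals and 0 with no replicate block. In the same order 6.79%, 5.69% and 0.0705% of all genes were called higher in those fits. Leaving out a line gave 0 to 22 nuclear genes higher, 0 to 3 nuclear genes lower and 0 to 3 mitochondrial genes lower. Leaving out 1 library gave, for HCCLM3 against MHCC97L, 1 to 8 nuclear genes higher and 7 to 33 lower, and 0 to 3 mitochondrial genes higher and 0 to 1 lower. For HCCLM3 against MHCC97H it gave 2 to 5 and 7 to 20 nuclear genes, and 0 to 3 mitochondrial genes higher. For MHCC97H against MHCC97L it gave 0 to 1 nuclear genes higher and 0 to 3 lower. The share of all genes called moved between the fits that left out 1 library too. For HCCLM3 against MHCC97L, 7.04% to 16.6% of all genes were higher and 7.21% to 15.6% lower. Against MHCC97H the shares were 9.56% to 15.0% and 9.67% to 15.5%. For MHCC97H against MHCC97L they were 0.373% to 5.52% and 0.290% to 4.73%. The mitochondrial calls came from fits with 1 HCCLM3 library, whose treatment term rests on the MHCC97 lines. No line difference is drawn from those calls. DESeq2 called 4 nuclear genes higher against MHCC97L, and 11.1% of all genes. The cause was not tested. Of the other values, 91 lost their call, 37 moved and 571 did not, and 0 reversed. At 18485041 counts or more, depth limits only the genes near the floor, among them the 6 untested isoforms and retrocopies. One library per line and condition limits the rest.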
